A study of Mus musculus with 2 samples.

Results

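CTCF sites in the introns of very long genes were taken from a map of CTCF binding in mouse forebrain on postnatal day 0. A site belonged to the set when its peak summit lay in an intron of a protein-coding gene of 500 kb or longer, more than 1 kb from any transcription start site (TSS) or coding transcript 3′ end, and on a base that the genome sequence does not mark as repeat. This gave 1920 of the 56462 peaks on placed chromosomes in the optimal list, which is 3.40%, in 216 of the 230 protein-coding genes of that length. No signal value was used to choose them. Intronic sites of protein-coding genes shorter than 500 kb, taken by the same rule, numbered 13596 and are the set they are compared with. Both are called here sites of very long genes and sites of shorter genes.

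The study has 1 group of 2 chromatin immunoprecipitation and sequencing (ChIP-seq) libraries, replicate 1 and replicate 2, with an antibody to CTCF. The tissue was forebrain of B6NCrl mice aged 0 day, pulverised and pooled from several dissections, with no treatment or engineered allele named in the labels and sex not collected. Both libraries cite the same biosample and donor, and their differences may therefore be technical. With 1 group and 2 libraries no test between conditions was possible. CTCF peaks do not measure expression, so the tissue label was not checked against marker genes, and a site in a pooled tissue cannot be assigned to a cell type.

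CTCF is a zinc-finger protein that reads a long, directional DNA motif. Cohesin, the ring complex that extrudes chromatin loops, halts preferentially at CTCF bound with its motif pointing toward the incoming loop, so the orientation of a site bears on the loops it can anchor. Very long genes are common among neuronal genes: synaptic adhesion molecules, ion channels and postsynaptic scaffolds are often encoded across introns of great length, and RNA polymerase takes hours to cross them.

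The strongest sites show what these introns carry. The sequences of 6 are given because they are among the highest in signal value of the sites with a motif outside the spanning models described further on. Each is written 5′ to 3′ on the strand of its motif, with the 14 bases of the CTCF core consensus in capitals and 20 bases on each side in lower case.
Ctnna3 intron 7: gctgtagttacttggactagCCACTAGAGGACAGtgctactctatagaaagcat
Lsamp intron 8: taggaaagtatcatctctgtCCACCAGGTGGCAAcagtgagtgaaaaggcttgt
Camta1 intron 7: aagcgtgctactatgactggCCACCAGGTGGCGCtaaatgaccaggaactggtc
Nav2 intron 2: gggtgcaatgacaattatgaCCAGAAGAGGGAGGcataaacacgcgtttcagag
Rasgef1b intron 4: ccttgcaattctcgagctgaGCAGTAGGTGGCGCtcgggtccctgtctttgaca
Thsd4 intron 7: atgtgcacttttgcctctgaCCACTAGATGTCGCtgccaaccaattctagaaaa

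Ctnna3, which encodes an alpha-catenin of cell junctions, had a site at chr10:64084449-64084722 with a signal value of 470, of 243 in replicate 1 and of 226 in replicate 2. The same intron holds Lrrtm3, a gene for a synaptic leucine-rich repeat protein, and the site lies within the bounds of that gene. Lsamp, which encodes a GPI-anchored limbic adhesion molecule, had a site in its last intron at chr16:42164990-42165299 with 458, and with 244 in replicate 1 and 216 in replicate 2. Both motifs had 1 mismatch.

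Camta1, which encodes a calmodulin-binding transcription activator, had 431 in intron 7 of 24 at chr4:151157004-151157288, with 218 in replicate 1 and 212 in replicate 2. Nav2, a gene for a neuron navigator protein of the microtubule cytoskeleton, had 430 in intron 2 of 39 at chr7:49132792-49133076, with 221 in replicate 1 and 209 in replicate 2. The Camta1 motif matched with 0 mismatches and the Nav2 motif with 2, so the strongest sites were not always the closest matches. Rasgef1b, which encodes a guanine nucleotide exchange factor, had 412, and Thsd4, which encodes a secreted thrombospondin-repeat protein, had 404.

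Of the 10 strongest sites, 4 lay in 2 gene models that span many genes. Gm20388 on chromosome 8 held sites of 448, 436 and 409, and Fgfr2 on chromosome 7 held 1 of 414. Gm20388 is a model of 4435 kb with 1 basic transcript that contains 71 other protein-coding genes. Fgfr2 encodes a fibroblast growth factor receptor, and its record of 2961 kb rests on 1 transcript, and the next longest of its 4 basic transcripts spans 104 kb; the record contains 29 other protein-coding genes. Such sites are intronic by annotation only in that sense. In all, 6 models contained 5 or more whole protein-coding genes: these 2, Gm37240 on chromosome 3, and Gm42416, Gm37013 and Gm37388 on chromosome 18. They held 272 sites, 14.2% of the set, which leaves 1648 sites in 224 genes without them. Values without them are given for density, motif share, motif strand, signal value, pairs, spacing, position along the gene and the replicates. The values by GC content of the tile, by gene length, of match occupancy, of mismatch positions and of the flanking bases include them.

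A gene's length was that of its gene record, which can exceed its basic transcripts. In 16 of the 230 genes the basic transcripts covered less than 500 kb, and these genes held 65 of the sites. Ptprd, which encodes a receptor protein tyrosine phosphatase that organises synapses, is the longest gene outside the spanning models at 2271 kb. Its 9 basic transcripts covered 653 kb, and 1 of the 10 eligible summits inside its record lay within them. At the length limit, the 10 genes just over it, of 502 to 511.6 kb, held 33 sites with a median signal value of 57.2, and the 10 just under it, of 488 to 499 kb, held 68 with a median of 47.3. Counts per gene ran from 0 to 10 just over it and from 0 to 13 just under it. The eligible bases and GC content of these 2 sets were not compared, so no step at the limit is shown.

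Sites were sparser in very long genes. Eligible bases, meaning intronic bases that the rule could have accepted, came to 126 Mb in very long genes and 494 Mb in shorter genes. The density was 15.2 sites per Mb in very long genes (95% exact Poisson interval 14.5 to 15.9), against 27.5 in shorter genes (27.1 to 28.0). The ratio was 0.552 (exact interval 0.526 to 0.579), and without the spanning models 13.7 sites per Mb gave 0.497 (0.472 to 0.524). The spanning models alone had 44.9 per Mb. These intervals cover counting error only and treat neighbouring sites as independent.

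Across host gene lengths, density was 34.4 sites per Mb in genes under 50 kb, 29.4 from 50 to 100 kb, 26.4 from 100 to 200 kb, 22 from 200 to 500 kb, 15.1 from 500 to 1000 kb and 15.3 above 1000 kb. The first 5 values come in falling order and their intervals do not overlap. The last 2 do not differ beyond their intervals of 14.2 to 16.03 and 14.3 to 16.4.

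GC content moved with gene length. It was 40.9% over the eligible bases of very long genes and 43.9% over those of shorter genes. When all eligible bases were divided into 5 equal parts by the GC content of their 10-kb tile, an arrangement chosen after seeing the data, 39.5% of the bases of very long genes fell in the lowest part and 6.28% in the highest, against 15.1% and 23.5% for shorter genes. The ratio of densities was 0.604 (0.528 to 0.691) in the lowest part and 0.759 (0.675 to 0.852) in the second. It was 0.909 (0.816 to 1.01) in the third, 0.873 (0.787 to 0.967) in the fourth and 0.998 (0.901 to 1.10) in the highest. In the highest part the densities were 51.6 per Mb in very long genes and 51.7 per Mb in shorter genes. In the lowest they were 6.19 and 10.2 per Mb. The highest part held 410 sites of very long genes in 7.94 Mb, spanning models included. Gm20388 alone had 168 sites in 2816 kb of eligible bases at 51.7% GC. How many of its sites fell in the highest part was not counted.

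**Figure D1:**
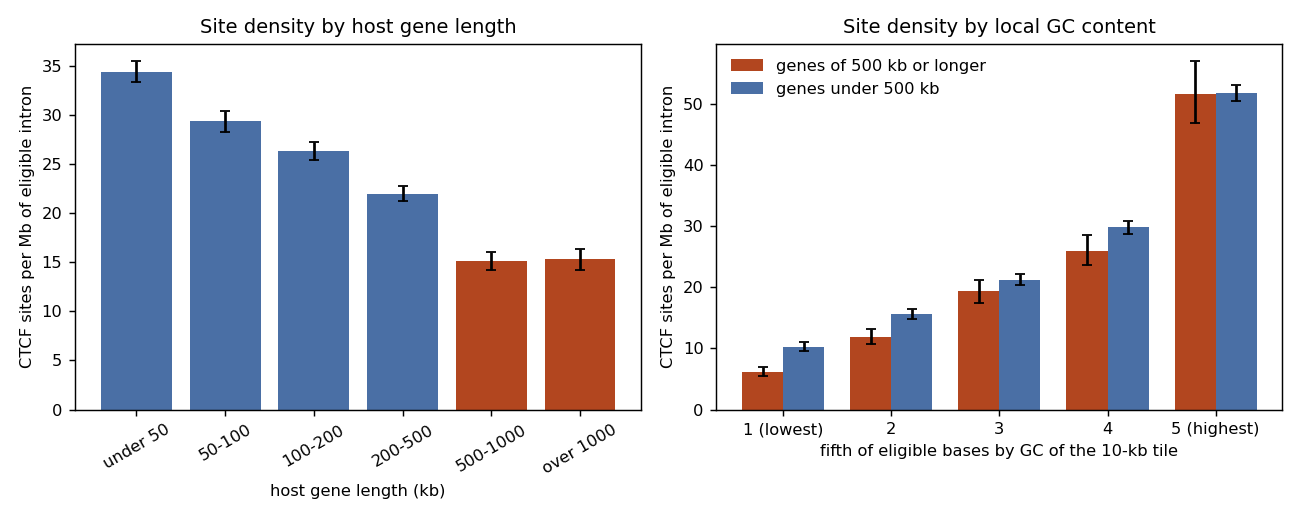
CTCF sites per Mb of eligible intron by host gene length (left; orange bars are the length classes of 500 kb and above) and by the GC content of the 10-kb tile (right; orange bars very long genes, blue bars shorter genes). Error bars are 95% exact Poisson intervals. On the right, the bars of both gene classes stand at 51.6 and 51.7 per Mb in the highest GC part and at 6.19 and 10.2 per Mb in the lowest. Both panels include the spanning models.

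The motif itself was also rarer. Perfect matches to the consensus in eligible bases, bound or not, came to 1.84 per Mb in very long genes and 3.68 per Mb in shorter genes, a ratio of 0.499 (0.433 to 0.572). Matches with 1 mismatch came to 14.6 and 23.7 per Mb, a ratio of 0.616 (0.586 to 0.647). Of the 232 perfect matches in very long genes, 206 had a peak summit within 50 bp, which is 88.8% (Wilson 95% interval 84.1 to 92.2), against 1585 of 1817 in shorter genes, 87.2% (85.6 to 88.7). The difference was 1.56 percentage points (Newcombe interval −3.37 to 5.36). By the GC of the tile, the share was higher in very long genes in the lowest part, 28 of 29 against 66 of 86, a difference of 19.8 points (4.08 to 30.2). In the other 4 parts the differences ran from −2.47 to 3.13 points, with intervals that include 0.

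The 26 perfect matches of very long genes without an optimal-list summit were looked up in the replicate lists. In 12 a peak of both replicate lists covered the match, in 7 a peak of 1 replicate, and in 7 neither. In shorter genes 232 perfect matches had no such summit, and the same counts were 102, 53 and 77. How often these lists cover any position was not counted, so the counts do not show occupancy. The replicate lists each hold 300000 peaks and run far below the optimal list, so many entries may be weak. Their signal values were not read here. A peak with its summit more than 50 bp from the match is counted too.

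Matches with 1 mismatch were occupied less often in very long genes. A summit stood at 526 of 1846 in very long genes, 28.5% (26.5 to 30.6), against 4100 of 11716 in shorter genes, 35.0% (34.1 to 35.9), a difference of −6.50 points (−8.69 to −4.23). Among those without a CpG in the 14 bases, the difference was −5.58 points (−7.85 to −3.20). Among those with a CpG it was −3.59 points (−9.92 to 2.77), at 49.2% in very long genes and 52.8% in shorter genes. By the GC of the tile, the difference was −12.1 points (−17.3 to −6.59) in the lowest part, −8.96 (−13.9 to −3.72) in the second, −1.94 (−7.02 to 3.46) in the third, −5.46 (−10.2 to −0.335) in the fourth and −2.77 (−7.74 to 2.57) in the highest. It was thus below 0 by more than its interval in 3 of the 5 parts, and the lowest part had differences of opposite sign for 0 and for 1 mismatch.

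Among the sites of very long genes, 1292 had a match to the consensus near the summit (within 50 bp, up to 2 mismatches), 67.3% (65.2 to 69.4), against 70.4% (69.6 to 71.2) of sites of shorter genes. The difference was −3.10 points (−5.37 to −0.902), and −2.74 points (−5.16 to −0.392) without the spanning models. By host gene length, the share was 74.0% under 50 kb, 71.4% from 50 to 100 kb and 68.3% from 100 to 200 kb. It was 67.2% from 200 to 500 kb, 68.1% from 500 to 1000 kb and 66.2% above, and 66.6% over the whole optimal list. The lower share was thus not particular to genes of 500 kb or longer. In windows of the same size 1000 bp to either side of the sites of very long genes, 2.24% had such a match. The matches comprised 201 with 0 mismatches, 539 with 1 and 552 with 2.

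Signal value went with the match. The median was 196 at 0 mismatches, 109 at 1, 61.2 at 2 and 38.2 without a match. In 4 equal groups by signal value, 47.3% of the weakest 480 sites had a match, 58.8% of the second group, 75% of the third and 88.1% of the strongest. The median over all 1920 sites was 65.8, against 74.9 in shorter genes and 64.3 over the whole optimal list. By host gene length, it was 91.5 under 50 kb, 74.6 from 50 to 100 kb and 71.5 from 100 to 200 kb. It was 64.1 from 200 to 500 kb, 67.8 from 500 to 1000 kb and 63.7 above. The lower median was thus not particular to genes of 500 kb or longer. The mean log2 signal value was 6.18 in very long genes and 6.31 in shorter genes, a difference of −0.13 ± 0.033 (SE across sites; 95% interval −0.19 to −0.06). It was −0.14 (−0.21 to −0.07) without the spanning models, −0.054 (−0.11 to −0.0029) among optimal-list peaks at or above the list's median signal, and −0.072 (−0.13 to −0.015) with repeat bases kept. The difference over all sites was −0.15 in replicate 1 and −0.13 in replicate 2. At equal mismatches it was −0.13 (−0.29 to 0.04) for 0 mismatches, −0.13 (−0.24 to −0.01) for 1 and −0.14 (−0.26 to −0.03) for 2. Sites are not replicates, so these intervals describe the list.

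**Figure D2:**
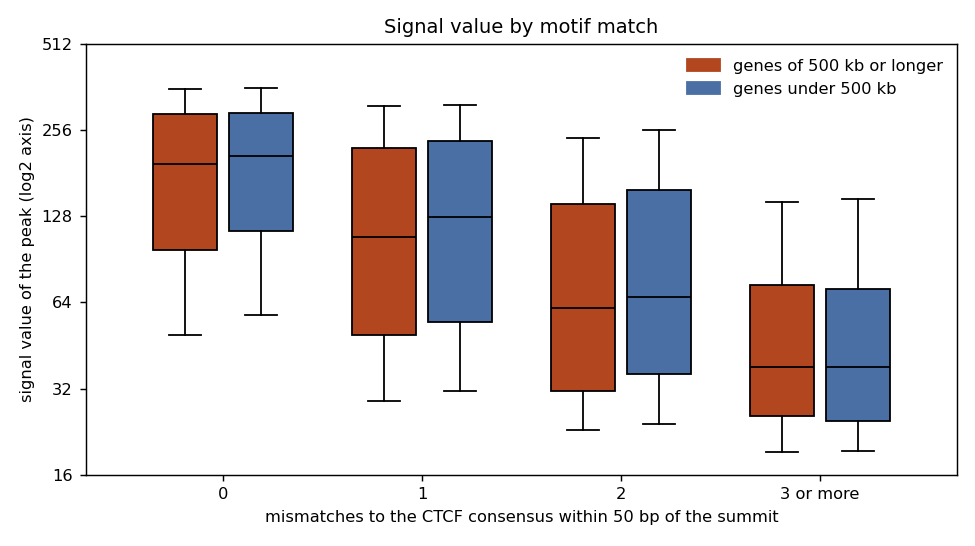
Signal value of the peak (log2 axis) by the number of mismatches of the best motif match within 50 bp of the summit, for very long genes (orange, left of each pair) and shorter genes (blue). Boxes run from the lower to the upper quartile with the median as a line, and whiskers reach the 10th and 90th percentiles. Medians in very long genes descend from 196 at 0 mismatches to 38.2 without a match, and the boxes of both gene classes overlap throughout.

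The single mismatches were unevenly spread over the consensus. Counted from 1 at the 5′ end of the consensus, the 539 sites with 1 mismatch had it at position 1 in 94, at position 12 in 89 and at position 5 in 81, and positions 11, 3 and 14 had it in 58, 57 and 55. Positions 7 and 8, which are inside the central run of the core, had it in 3 sites each, and position 2 in 4. The consensus accepts 2 bases at positions 4, 5, 8, 9, 13 and 14 and a single base elsewhere. Positions thus did not have equal room for a mismatch, and the spread at matches without a peak was not counted. In shorter genes position 1 took 16.4% and position 12 took 17.1% of such mismatches, against 17.4% and 16.5% in very long genes.

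Outside the 14 bases, the letters TGCA recurred upstream. They are seen near the start of the printed sequences of Nav2, Rasgef1b and Thsd4, and were searched for after those had been read. TGCA is its own reverse complement, so it reads alike on both strands. It occurred in the 20 bases 5′ of the motif in 280 of 1292 sites of very long genes, 21.7% (19.5 to 24), in the 20 bases 3′ of it in 12.5%, and in windows of 20 bases moved by 1000 bp in 10.1%. Of the 280, 93 had it begin 17 bases upstream and 72 had it begin 18 bases upstream, and no other start held more than 18. In shorter genes the upstream share was 20.1% (19.3 to 20.9). Among matches with 1 mismatch in very long genes, the upstream 20 bases held TGCA in 119 of 526 with a summit, 22.6% (19.3 to 26.4), and in 118 of 1320 without one, 8.94% (7.52 to 10.6).

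Matches lay on either strand in like numbers. They were on the strand of the gene in 631 of 1292 sites of very long genes, 48.8% (46.1 to 51.6), and in 48.6% without the spanning models, and the interval includes 50%. In shorter genes the share was 47.3% (46.3 to 48.3), which lies below 50% by more than its interval, while the intervals of the 2 gene classes overlap. Successive sites of the same gene that both had a match formed 777 pairs. Motifs faced each other (convergent) in 163, 21% (18.3 to 23.98), pointed the same way (tandem) in 430, 55.3% (51.8 to 58.8), and faced apart (divergent) in 184, 23.7% (20.8 to 26.8). In shorter genes the 3466 pairs had 20.9% convergent, 54.7% tandem and 24.4% divergent. Without the spanning models the 657 pairs of very long genes had 20.7% convergent, 55.9% tandem and 23.4% divergent. The median gap of convergent pairs was 35.4 kb in very long genes, or 46.6 kb without those models, and 15.2 kb in shorter genes.

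Strong pairs of each kind occurred within 1 gene. The following are among the pairs with the highest weaker member and are shown to make the orientations visible, each motif again 5′ to 3′ on its own strand. The left and the right site are named by genome position.
Cacna1c convergent, left: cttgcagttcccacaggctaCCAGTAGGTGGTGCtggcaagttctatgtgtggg
Cacna1c convergent, right: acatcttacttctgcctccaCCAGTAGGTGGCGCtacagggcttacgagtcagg
Camta1 divergent, left: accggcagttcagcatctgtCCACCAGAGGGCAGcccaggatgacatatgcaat
Camta1 divergent, right: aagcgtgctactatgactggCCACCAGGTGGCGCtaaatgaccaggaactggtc

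In Cacna1c, the gene of an L-type calcium channel pore subunit, the convergent pair reached across 181406 bases between introns 3 and 1, with 319 at chr6:118922922-118923171 and 317 at chr6:119104342-119104586. The divergent Camta1 pair had 402 at chr4:151141580-151141858 and 431 at the site named above, 15420 bases apart. Whether any of these anchors a loop is not measured by ChIP-seq.

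Sites also stood farther apart. The nearest other summit of the optimal list was at a median of 11635 bases in very long genes, against 7175 bases in shorter genes. A neighbour within 10 kb was found for 46.0% of sites of very long genes and 59.4% of sites of shorter genes, a difference of −13.4 points (−15.7 to −11.0). Without the spanning models the median was 13655 bases and the difference −16.7 points (−19.2 to −14.2). A nearest neighbour beyond 100 kb was found for 143 sites of very long genes, 7.45%, against 163 sites of shorter genes, 1.20%.

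Along the gene, density was 20.2 sites per Mb in the first 50 kb from the gene's 5′ end (16.9 to 23.9), 12.3 from 50 to 100 kb (9.80 to 15.2), 12.9 from 100 to 200 kb, 14.3 from 200 to 500 kb and 16.2 beyond. Without the spanning models the same classes gave 19.7, 12.05, 12.5, 13.5 and 13.6. The first 50 kb stood above each other class by more than the intervals without those models. In 5 equal stretches of the gene from 5′ to 3′, density was 16.4, 12.9, 14.8, 15.1 and 16.8 per Mb, and 13.6, 11.9, 13.3, 13.8 and 15.7 per Mb without the spanning models.

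Of the sites, 512 lay in the first intron of the transcript with the longest span, 26.7% (24.7 to 28.7), where 22.7% of the eligible bases lay. Without the spanning models these were 20.6% (18.7 to 22.7) and 21.2%, so the excess went with those models. The first intron of Gm20388 alone is 4384418 bases long.

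Gene by gene, the number of sites ran from 0 to 168 with a median of 6, and 66 genes had 10 or more. Across the 223 genes outside the spanning models that have eligible bases, density and GC content had a Spearman rank correlation of 0.66, given as a description because the genes share the same libraries. On chromosome X the 12 very long genes had 32 sites in 6.5 Mb, 4.92 per Mb (3.37 to 6.95), against 14.2 per Mb (13.5 to 14.9) in the 212 autosomal genes outside the spanning models. The GC content was 36.3% in the genes of chromosome X and 40.7% in the autosomal genes, and sex is not given, so the part of GC content or copy number in that difference was not tested.

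**Figure D3:**
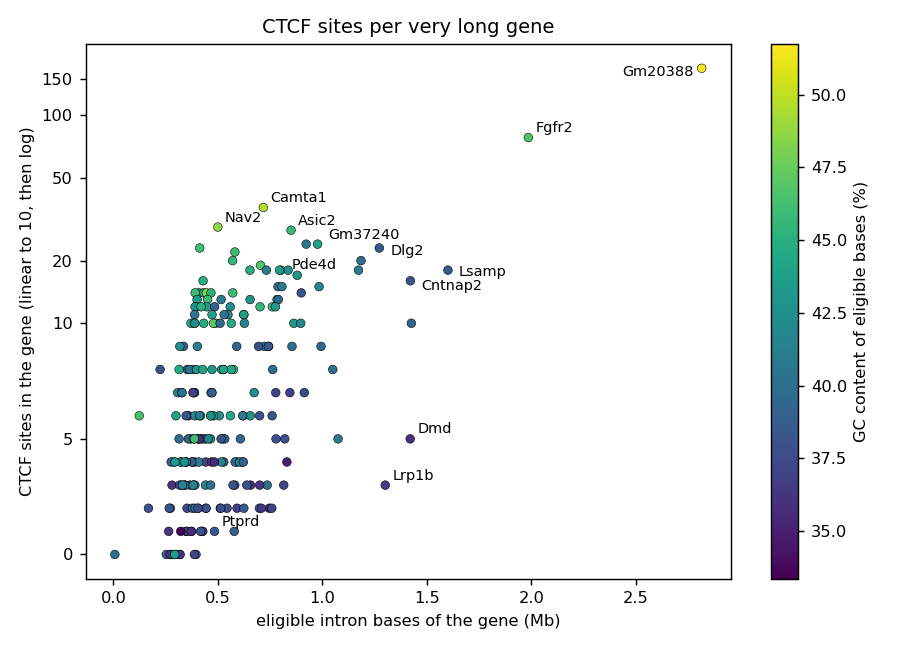
CTCF sites per very long gene against the eligible intron bases of the gene, coloured by GC content; the vertical axis is linear to 10 and logarithmic above. Gm20388 and Fgfr2, the 2 largest spanning models, stand apart at 168 and 78 sites, and Cntnap2 and Dmd, with almost the same number of eligible bases, have 16 and 5 sites.

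Genes were grouped by lists of neuronal and general function, which placed 158 of the 230. Genes for adhesion and recognition molecules were the largest list, with 62 genes, all with a site, and 480 sites at 11.9 per Mb (10.9 to 13.0). Nrxn3, which encodes a presynaptic neurexin, had 20 sites, Lsamp 18 and Cdh13, which encodes a GPI-anchored cadherin, also 18. Their strongest sites had signal values of 289 in Nrxn3, 458 in Lsamp and 395 in Cdh13. Cntnap2, which encodes a neurexin-like protein of axons, had 16 sites over 2245 kb.

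The Nrxn3 sites lay between 264 and 1094 kb from the 5′ end, and 15 of the 20 lay in the 5′ part of the gene before its midpoint. The last 518 kb of the gene held none. In Cntnap2 the pattern was the other way round, with 12 of the 16 sites past the midpoint and a stretch of 710 kb from 264 kb to 974 kb without a site of the set. Summits that the rule left out were not placed along these stretches. With them the optimal list had 22 summits in all within Nrxn3 and 19 within Cntnap2. The strongest site of Cntnap2, at chr6:46961361-46961607 in intron 15, had 358, and 180 in replicate 1 and 176 in replicate 2. Cdh13 had the motif on the other strand than the gene in 13 of its 16 sites with a match.

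Genes for ion channels and receptors had 123 sites at 10.6 per Mb (8.83 to 12.7) in 21 genes, an interval that overlaps that of the adhesion list. The list does not hold every gene of a channel. Asic2, with 28 sites at 32.9 per Mb, and Fam155a, with 10 sites at 25.7 per Mb, are in no list and are described further on. The density with them was not computed. Trpm3, which encodes a heat- and steroid-sensitive cation channel, had 11 sites, as did Cacna2d3, which encodes a calcium channel auxiliary subunit, and Cacna1c had 10. In Cacna2d3, 8 of the 9 motifs lay on the strand of the gene. The list's sparse end held 2 of the 3 sparsest genes with at least 500 kb of eligible bases. Grm8, which encodes a metabotropic glutamate receptor, had 1 site in 579 kb, 1.73 per Mb (0.0438 to 9.63). Lrp1b, which encodes a giant LDL receptor family member, had 3 sites in 1302 kb, 2.30 per Mb (0.475 to 6.74). The signal values were 117 in Grm8 and 43.4, 20.02 and 24.2 in Lrp1b. Il1rapl2, an adhesion-list gene on chromosome X for an interleukin-1 receptor accessory-like protein, was the other, with 2 sites of 83.6 and 98.7.

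The single Grm8 site and the strongest Lrp1b site are printed to set beside the strong ones above.
Grm8 intron 6: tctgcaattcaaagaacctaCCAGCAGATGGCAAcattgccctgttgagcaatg
Lrp1b intron 2: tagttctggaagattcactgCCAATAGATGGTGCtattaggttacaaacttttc
The Grm8 motif, at chr6:27657712-27657725, had 1 mismatch and the Lrp1b motif, at chr2:42055518-42055531, had 2. The Lrp1b peak had 17.4 in replicate 1 and 26.6 in replicate 2. With exons, gene ends and repeats counted too, the optimal list had 2 summits in all within Grm8 and 3 within Lrp1b.

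Genes for scaffolds, cytoskeleton and vesicle release had 276 sites in 33 genes at 15.9 per Mb (14.1 to 17.9). Nav2 had 29 sites, or 58.0 per Mb (38.8 to 83.3), and with Camta1 it is among the 3 densest genes with at least 500 kb of eligible bases, the other being Gm20388. Camta1 contains 4 other whole protein-coding genes, just under the 5 that define a spanning model. Kalrn, which encodes a guanine nucleotide exchange factor of dendritic spines, had 23 sites at 55.6 per Mb, and Dlg2, which encodes a postsynaptic guanylate kinase-like scaffold, had 23 sites at 18.1 per Mb. The same number of sites was thus spread over 1973 kb in Dlg2 and 604 kb in Kalrn. GC content was 38.6% in Dlg2 and 46.1% in Kalrn.

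Dmd, which encodes dystrophin, had 5 sites in 1421 kb of eligible bases on chromosome X, 3.52 per Mb (1.14 to 8.21). Its first 792 kb held none, and its strongest site had a signal value of 175, with 85.7 in replicate 1 and 89.4 in replicate 2. All 5 had a motif with at most 1 mismatch. The 5 sites are all the summits of the optimal list within the gene.

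Genes for signalling enzymes and growth factors had 207 sites in 25 genes at 13.9 per Mb (12.1 to 15.9). Pde4d, which encodes a cAMP phosphodiesterase, had 24 sites with a median signal value of 121, and Wwox, which encodes a WW-domain oxidoreductase, had 19 with 48.8. In Pde4d 22 of 24 lay past the midpoint, and 328 kb between 432 and 761 kb from the 5′ end held none. In Wwox 13 of 19 lay before the midpoint, and the last 193 kb held none. These stretches too are without a site of the set. The optimal list had 30 summits in all within Pde4d and 25 within Wwox, and those outside the set were not placed.

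Genes for transcription and RNA-binding factors had 157 sites in 15 of 17 genes at 19.1 per Mb (16.2 to 22.3). Camta1 had 36 at 50.2 per Mb, Rora, which encodes an orphan nuclear receptor, had 20, and Rbfox1, which encodes a neuronal splicing factor, had 18. The density of the list without Camta1 was not computed. The basic transcripts of Rbfox1 covered 1062 kb of its record of 1526 kb, and 18 of the 28 eligible summits inside the record lay within them. Of this list's sites, 96 of 157 had a motif, 61.1%, and their median signal value was 55.2, beside 67.3% and 65.8 over all sites of very long genes. No interval was computed for that share, so a difference beyond counting error is not shown. Zfp804b and Dach2, a zinc-finger and a dachshund-family factor gene, held no site in 320 and 298 kb of eligible bases. A count of 0 there allows up to 9.39 per Mb in Zfp804b and 10.1 per Mb in Dach2 (3 counts), which is below the density of their list. GC content was 36.2% in Zfp804b and 34.6% in Dach2, against 42.6% over the list. Both limits lie above 6.19 per Mb, the density of very long genes in the lowest GC part.

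The 72 genes of no list held 677 sites, of which 272 were in the spanning models. Asic2, which encodes a proton-gated sodium channel, had 28 sites, 21 of them before the midpoint, and its strongest had 375 with 213 in replicate 1 and 165 in replicate 2. Ptprn2, which encodes a phosphatase-like protein of secretory granules, had 22, with a median signal value of 34.6, and the spanning model Gm37240 had 24. No site was found in 12 of the 72, 3 of which had no eligible base. GC content over eligible bases was 39.8% in the adhesion list, 40.1% in channels and receptors, 40.6% in signalling, 40.9% in scaffolds and 42.6% in transcription and RNA-binding factors. With Camta1 included, the list with the highest density was also the one with the highest GC content, whose part in the density was not tested.

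**Figure D4:**
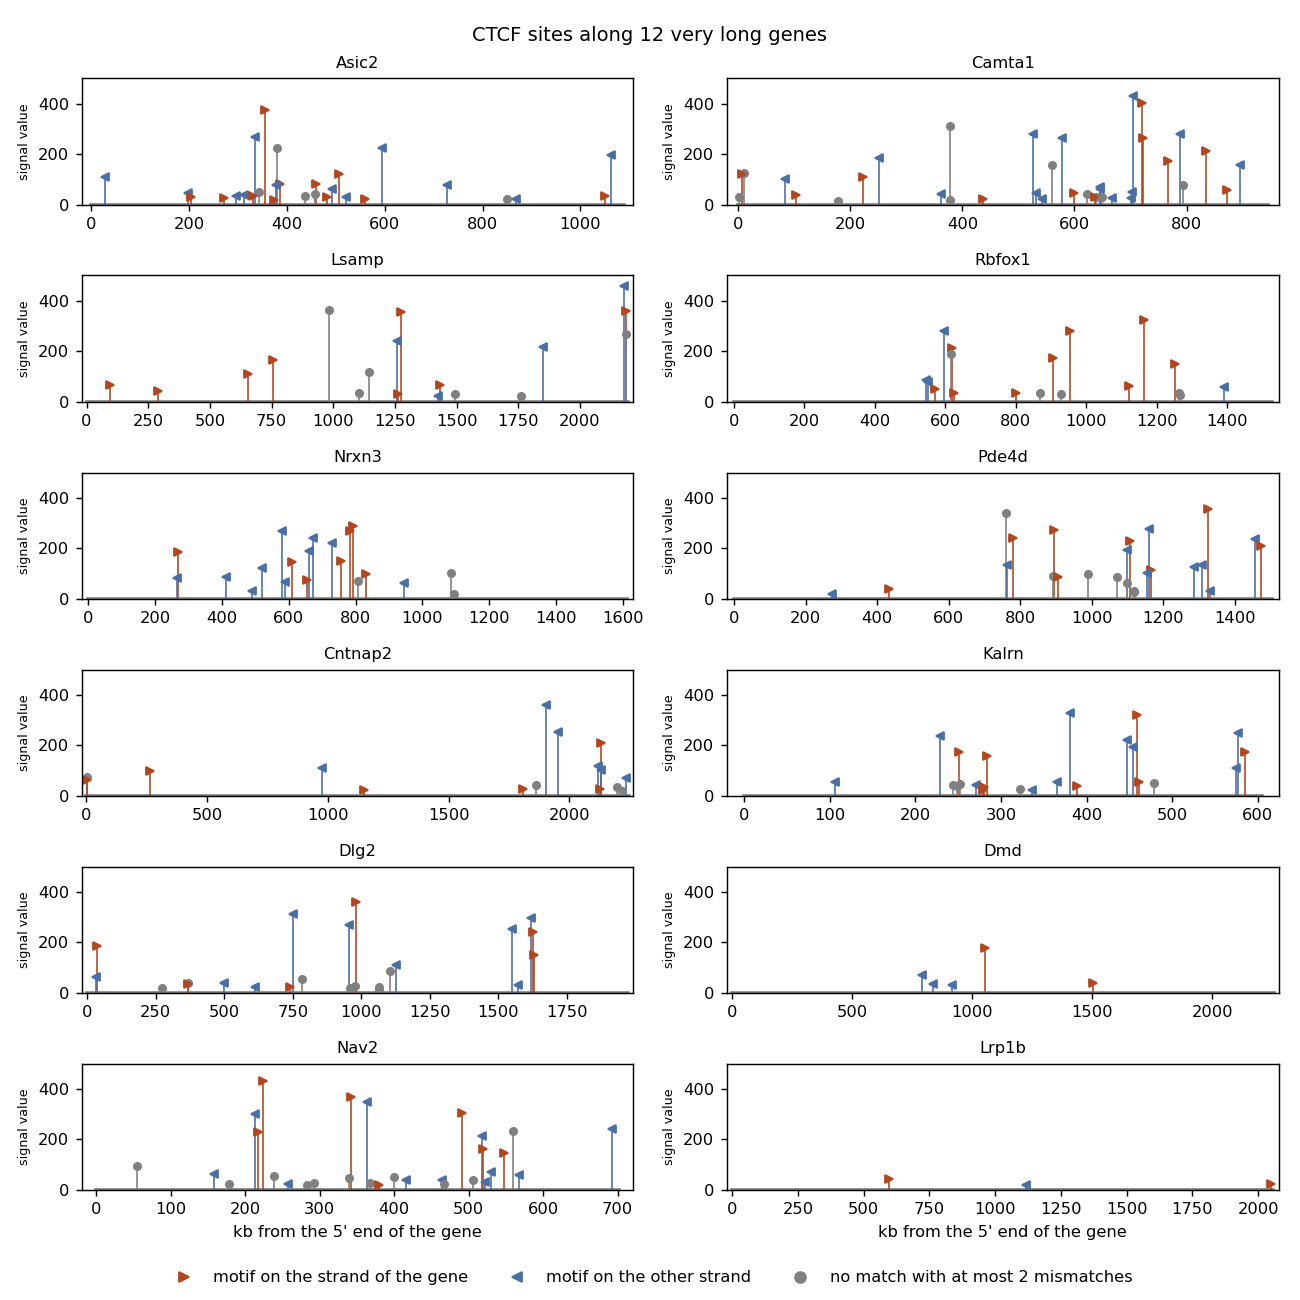
Signal value of each CTCF site against its distance from the 5′ end of the gene in 12 very long genes; right-pointing orange markers have the motif on the strand of the gene, left-pointing blue markers on the other strand, and grey circles have no match with at most 2 mismatches. Pde4d has 22 of 24 sites past the midpoint, Nrxn3 has none in its last 518 kb, and Dmd and Lrp1b have 5 and 3 sites. Only sites of the set are drawn. Summits outside the basic transcripts are therefore missing, and in Rbfox1 18 of the 28 eligible summits of its record are shown.

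Not every strong site had the motif. Fam155a, which encodes a subunit of the NALCN sodium leak channel complex, had a site of 384 at chr8:9227734-9228020 in intron 2, with 194 in replicate 1 and 193 in replicate 2. Its closest match had 3 mismatches and is printed with the same capitals to show how near it comes.
Fam155a intron 2: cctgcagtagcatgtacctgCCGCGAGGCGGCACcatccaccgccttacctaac
Among spanning models, a Gm20388 site of 409 had at least 4 mismatches. With up to 3 mismatches allowed, the share of sites with a match was 87.1%.

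The replicates differed little at strong sites and more at weak ones. Replicate values at 1919 of the 1920 sites were centred on the median ratio over the whole optimal list, 1.15 for replicate 1 over replicate 2. Of these sites, 108 differed by more than 2-fold, 5.63% (4.68 to 6.75), beside 6.26% over all optimal-list peaks and 5.12% in shorter genes, and without the spanning models it was 5.59%. In the 4 groups by signal value, 17.7% of the weakest sites passed 2-fold, 4.17% of the second group, 0.625% of the third and 0 of the 480 strongest, which allows up to 0.625% (3 counts). The SD of the centred log2 ratio was 0.75 in the weakest group and 0.17 in the strongest.

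The largest ratios were all at weak peaks. Higher in replicate 1 were a site of Gpc5, which encodes a glypican, with 13.9 in replicate 1 and 2.89 in replicate 2, a Gm20388 site with 20.3 and 4.34, and a site of Nav3, which encodes a neuron navigator, with 18.8 and 4.03. Higher in replicate 2 were a Gm20388 site with 3.52 in replicate 1 and 14.5 in replicate 2, a Ptprn2 site with 6.46 and 25.3, and a Dlg2 site with 7.33 and 26.8. None of these 6 overlapped a peak of the conservative list, which 1694 of the 1920 sites did, 88.2% (86.7 to 89.6), or 88.1% without the spanning models, beside 87.4% over the optimal list. In the weakest group the share was 56.0%, and in the others 96.9%, 100% and 100%.

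**Figure D5:**
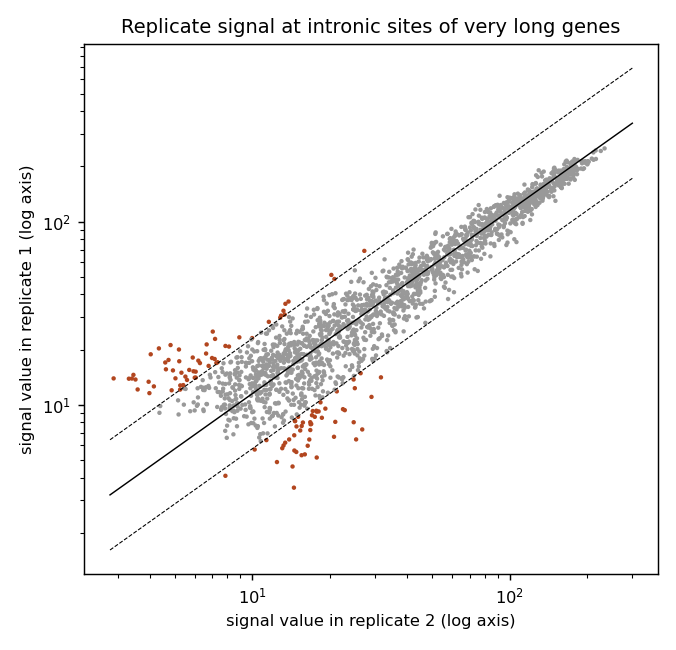
Signal value in replicate 1 against replicate 2 (both log axes) at the 1919 intronic sites of very long genes with a peak in both; the solid line is the median ratio over the optimal list, 1.15, and the dashed lines lie 2-fold to either side. The 108 orange points beyond the dashed lines include none of the 480 strongest sites and 0.625% of the next 480, and the spread about the solid line is narrowest at the strongest sites.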

How the data were processed

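CTCF ChIP-seq peaks of 2 libraries of 1 group were used, as peak lists on mm10 per the labels. The deposited lists give the signal value of each peak as the authors' peak caller wrote it, on a scale that is not stated, and −log10 of a q-value, which the deposited lists cap at 5.04 for most sites and which was not used for any result. Aligner, caller and sequencing depth: not given in the sources used here. The control experiment that the labels mention was not analysed here. The replicate lists hold exactly 300000 peaks each, and the optimal and conservative lists, which per the labels passed an irreproducible discovery rate threshold, hold 56470 and 54779. A site's strength is its value in the optimal list, and its value in a replicate is that of the strongest overlapping peak of that replicate's list. The list's 8 peaks on unplaced contigs were dropped.

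Summits were set on GENCODE M21 basic gene models and on the RefSeq copy of GRCm38 (mm10), whose repeat marks are those of that copy. Introns are those of basic transcripts. Sequences printed are from this copy. The 14-letter CTCF core consensus was looked for on either strand, allowing 2 mismatches, with all letters no more than 50 bp from the summit. Shares have Wilson intervals, their differences Newcombe intervals, and densities and ratios exact ones, all at 95%, covering counting error only. No test across sites was made. Software was scipy 1.17.1, pandas 2.3.3, numpy 2.4.6 and matplotlib 3.10.9 under Python 3.11.15. The motif scan and intervals were tested on simulated data. The members, gene lists and comparisons were chosen with earlier results of these data known.

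Named were the 10 strongest sites, the 10 genes with the most sites, the 3 genes with the most and up to 3 with no site in each list, the 3 longest genes, the 3 densest and 3 sparsest genes with at least 500 kb of eligible bases, and the 3 sites with the largest replicate ratio each way. Genes outside this rule (Thsd4, Fam155a and the pair examples) were chosen after their values were seen. Some items this rule selects are not reported here.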

Additional observations from a re-analysis of the deposited data

How the results depend on the processing

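The count of sites was 1920, and 3608 with a length minimum of 300 kb, 805 with one of 1 Mb. The density ratio of 0.552 was 0.514 for optimal-list peaks at or above the list's median signal. It was 0.586 with a 300 kb minimum, 0.590 with 1 Mb and 0.501 with repeat bases kept. Without the spanning models it was 0.497. Within the GC parts, which include those models, it was 0.604, 0.759, 0.909, 0.873 and 0.998, lowest to highest. It ranged from 0.546 to 0.554 with 1 replicate left out. With each site's value taken from a single replicate, the mean log2 difference of −0.13 became −0.15 (replicate 1) or −0.13 (replicate 2). The sites were still those of the optimal list, which derives from both replicates, so neither replicate was left out of choosing them. The mean log2 difference was −0.054 among those stronger peaks. The motif share of 67.3% was 81.4% among them, 38.5% with at most 1 mismatch, 87.1% with at most 3 and 69.5% within 100 bp, and 66.8% to 67.3% with 1 replicate left out. Its difference kept its sign under all 8 alternatives tried, from −2.27 to −2.64 points with 1 replicate left out. Convergent pairs were 15.1% with at most 1 mismatch, against 21.0%. The first-intron share was 20.6% without the spanning models. The share on the gene strand was 48.5% to 49.3%, and the count of genes with a site 217 to 218, with 1 replicate left out. Of the alternative values, 54 stayed within the main value's interval or within 1.5 times its count, 19 moved and none changed sign. The spanning-model, GC and gene-span settings were chosen after seeing the data. Taking the whole gene record in place of basic transcripts gave 2033 sites. No paired analysis was possible because there is 1 group. Unknown read depth limits what can be said of weak sites.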
